A study of Mus musculus with 5 samples.

Results

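The Krüppel-like factor (KLF) genes Klf2, Klf3, Klf4, Klf6, Klf9, Klf10 and Klf13 were described in plasma cells (PCs) of murine bone marrow. Their members were all probe sets, the groups of short array probes that report on a transcript, which the platform annotation assigns to only 1 gene and whose symbol is in this list. This gave 26 probe sets of 7 genes among 45037 on the array, with 1 probe set for Klf2 and for Klf10, 2 for Klf4, 3 for Klf13, 5 for Klf6 and 7 each for Klf3 and Klf9. The 7 genes were selected on their change with culture in these same 5 arrays, so that change is given as a description and without p-values.

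Arrays were hybridized with RNA of PCs cultured for 3 days on ST2 cells, a murine stromal line, together with the cytokine APRIL under physiological oxygen (3 arrays) and of PCs processed directly after isolation, called ex vivo (2 arrays). Experiment 2 contributed 2 cultured arrays and 1 ex vivo array, and experiment 1 contributed 1 of each. All cells came from C57BL/6J mice immunized with the hapten conjugate NP-CCG in incomplete Freund's adjuvant, with more than 30 days between the final boost and isolation, and were obtained magnetically by removing B220 and CD49b positive cells and then enriching CD138high cells. Cultured PCs were also sorted by flow cytometry before RNA extraction whereas no sort is described for ex vivo PCs, so sorting and culture cannot be told apart. Nothing in the labels says whether the 2 cultured arrays of experiment 2 came from separate cultures or whether animals were pooled, so p-values measure the spread between these arrays, which may be partly technical. RNA came from bulk cells, in which fewer cells with a transcript and less transcript per cell cannot be told apart.

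KLFs are transcription factors with a conserved group of zinc fingers at the C-terminus that bind GC-rich and CACCC sequences in promoters and enhancers. The family falls into activators such as KLF2, KLF4 and KLF6, repressors that recruit the corepressor CtBP such as KLF3, and repressors that recruit SIN3A such as KLF9, KLF10 and KLF13. In lymphocytes KLF2 is known for quiescence and trafficking, and Klf2, Klf4, Klf6 and Klf10 are also known as genes whose transcripts respond rapidly to stimulation of a cell.

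The promoters of Klf2 and Klf4, the genes with the largest culture differences, and of Klf9, of which 3 probe sets were higher after culture in every pair, are shown to place them beside the levels. They are the 250 bases before the annotated start in RefSeq on build GRCm38.p6, read in the direction of transcription, at chr8:72318812-72319061 on the plus strand (Klf2), chr4:55532476-55532725 on the minus strand (Klf4) and chr19:23140976-23141225 on the plus strand (Klf9). Capitals mark the core TGACG of a cAMP response element on either strand (written CGTCA on the other) and the MEF2 site. They also mark the letters TGANTCA, which were searched for AP-1 with any base allowed at N.
Klf2: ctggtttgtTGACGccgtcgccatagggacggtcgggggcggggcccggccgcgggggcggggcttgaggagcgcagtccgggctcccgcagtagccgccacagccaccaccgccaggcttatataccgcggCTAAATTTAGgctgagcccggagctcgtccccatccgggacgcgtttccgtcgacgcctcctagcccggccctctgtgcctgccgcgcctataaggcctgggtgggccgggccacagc
Klf4: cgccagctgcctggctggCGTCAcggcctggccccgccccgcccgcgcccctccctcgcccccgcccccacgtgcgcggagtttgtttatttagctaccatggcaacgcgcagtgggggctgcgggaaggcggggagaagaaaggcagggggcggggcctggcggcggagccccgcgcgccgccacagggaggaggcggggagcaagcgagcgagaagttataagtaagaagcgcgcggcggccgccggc
Klf9: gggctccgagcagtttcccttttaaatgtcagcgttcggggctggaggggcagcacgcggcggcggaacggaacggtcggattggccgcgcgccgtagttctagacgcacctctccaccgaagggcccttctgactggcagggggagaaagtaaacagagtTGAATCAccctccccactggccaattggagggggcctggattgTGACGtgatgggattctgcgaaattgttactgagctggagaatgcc

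Of the 7 genes 6 had a promoter in the RefSeq table, with Klf10 as the exception. Letters were searched on both strands over 300 bases, with 50 of them after the start, in these promoters and in all 32851 promoters of that length. TGACG was present in 5 of the 6 promoters (Klf2, Klf3, Klf4, Klf9 and Klf13), against 20.8% of all promoters, and the full element TGACGTCA, which contains it, in 0 of 6, against 1.79%. The letters TGANTCA, searched for AP-1 with any base at N, were found only in the Klf9 promoter (7.81% of all). There they read TGAATCA, with A at N, beginning 89 bases before the start. The MEF2 site was found only in the Klf2 promoter, beginning 118 bases before the start (3.19% of all). GGGCGG, the GC box, was present in 5 of 6 promoters (35.7% of all), CACCC in 4 of 6 (57.5%) and the E box CACGTG in Klf4 and Klf6 (7.15%). The serum response CArG box and the NF-kB site were present in 0 of 6, against 1.63% and 4.51%. The KLF promoters were GC-rich, between 63% and 76.7% G and C, against a median of 52.7% over all promoters, and GC-rich letters are found more readily in such sequence. These matches are letters in a window and say nothing of binding.

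Levels are given as the log2 of the deposited array intensity, in which a step of 1 is a doubling, and differences were taken within a probe set, with the words brightest and dimmest used only to name a probe set. Klf2, which encodes a regulator of lymphocyte quiescence and of exit from tissues, read 6.49 and 6.47 in cultured PCs of experiment 2 and 6.44 in those of experiment 1, against 9.68 in ex vivo PCs of experiment 2 and 9.94 in those of experiment 1. The 3 cultured arrays lay within a narrow band far below both ex vivo arrays. Klf2 averaged 6.47 ± 0.025 in cultured PCs (SD, n = 3) and 9.81 ± 0.18 in ex vivo PCs (SD, n = 2), a difference of -3.34, or 10.1-fold lower after culture. The change was -3.19 and -3.21 in experiment 2 and -3.49 in experiment 1.

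Klf4, which encodes a factor of myeloid differentiation and of stem cell identity, was measured by a pair of probe sets that gave the same order of arrays. With 1417395_at the levels were 5.81 and 5.67 in cultured PCs of experiment 2 and 6.09 in those of experiment 1, against 8.01 and 8.74 in ex vivo PCs of experiments 2 and 1. Its means were 5.86 ± 0.21 in cultured PCs (n = 3) and 8.37 ± 0.52 in ex vivo PCs (n = 2), a difference of -2.52, or 5.72-fold lower. Both ex vivo arrays stood apart from all cultured arrays, and the array of experiment 1 was the highest of each group. With 1417394_at the levels were 5.10 and 4.97 in cultured PCs of experiment 2 and 5.36 in those of experiment 1, against 8.07 and 8.78 in ex vivo PCs of experiments 2 and 1. All 3 cultured levels of this probe set were below an intensity of 50, the minimum used here. Its difference was -3.28, and -2.78 when intensities under 50 were set to 50.

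Klf6, which encodes an activator known from tissue injury and from regulation of transforming growth factor genes, had lower means in cultured PCs for all 5 of its probe sets, with differences from -1.57 to -0.25. Its brightest probe set, 1418280_at, read 10.86 and 10.91 in cultured PCs of experiment 2 and 10.08 in those of experiment 1, against 11.54 and 11.42 in ex vivo PCs of experiments 2 and 1, a difference of -0.86. The largest difference, -1.57, came from 1427742_a_at, with 7.89 and 7.32 in cultured PCs of experiment 2 and 7.66 in those of experiment 1, against 8.66 and 9.71 in ex vivo PCs of experiments 2 and 1. Cultured and ex vivo arrays did not overlap for 4 of the 5 Klf6 probe sets, including these. For 1433508_at the difference was -0.50 and for 1447448_s_at it was -0.60. The dimmest, 1459718_x_at, was under an intensity of 50 in all arrays, was not tested, and its groups overlapped. In each of the 4 brighter probe sets the change was larger in experiment 1, for example -1.34 for 1418280_at, against -0.67 and -0.63 in experiment 2.

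**Figure D1:**
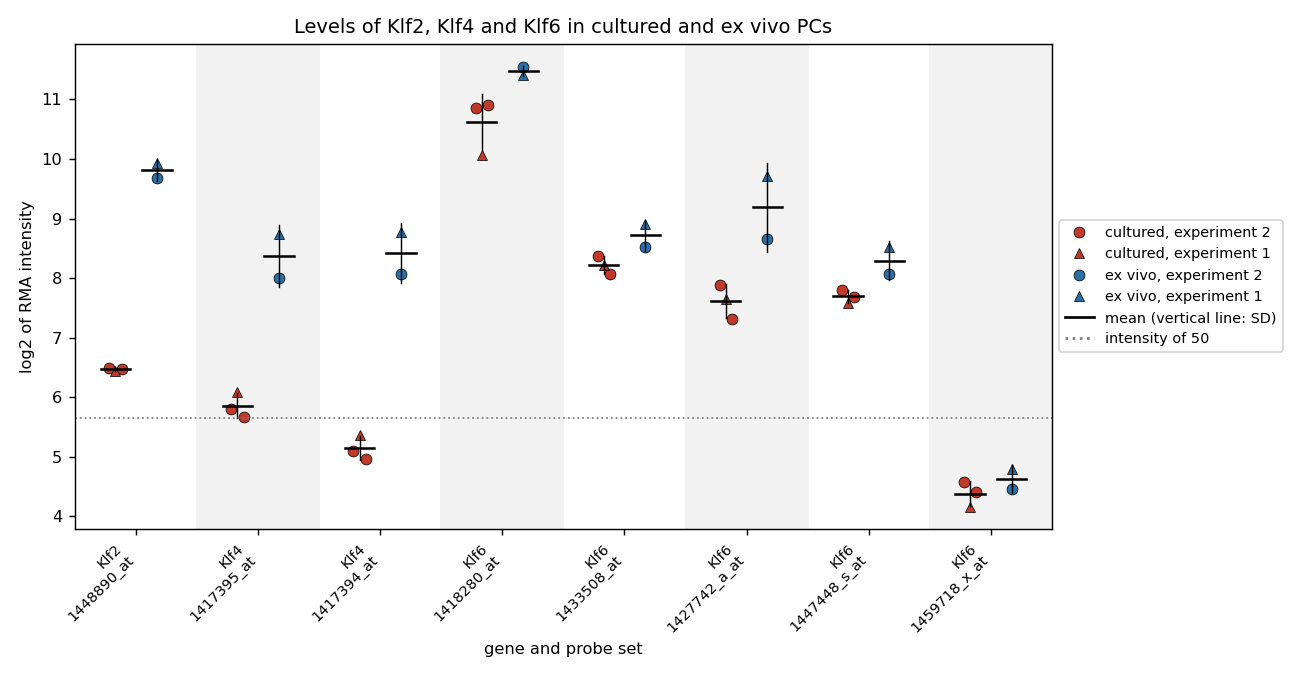
Log2 intensity of each Klf2, Klf4 and Klf6 probe set in 3 cultured and 2 ex vivo arrays, with circles for experiment 2, triangles for experiment 1, bars for the group mean and SD, and a dotted line at an intensity of 50. For Klf2 the cultured arrays lie between 6.44 and 6.49, below the ex vivo arrays at 9.68 and 9.94, and the Klf6 gaps are smaller than those of Klf2 and Klf4.

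Klf9, which encodes a factor induced by glucocorticoids and thyroid hormone, had 3 probe sets with levels in cultured PCs above those of ex vivo PCs in every pair of an experiment. Its brightest, 1456341_a_at, read 7.44 and 7.27 in cultured PCs of experiment 2 and 8.05 in those of experiment 1, against 6.73 and 7.35 in ex vivo PCs of experiments 2 and 1, a difference of 0.55. The groups overlapped across experiments because experiment 1 was higher in both. With 1428289_at the levels were 6.91 and 6.87 in cultured PCs of experiment 2 and 7.36 in those of experiment 1, against 6.33 and 6.81 in ex vivo PCs of experiments 2 and 1, a difference of 0.47. With 1428288_at they were 7.11, 7.10 and 7.50 in cultured PCs, against 6.89 and 6.62 in ex vivo PCs, a difference of 0.48. These last probe sets did not overlap between cultured and ex vivo arrays. The other 4 Klf9 probe sets did, with differences of -0.15 for 1436952_at, -0.04 for 1436763_a_at, 0.32 for 1452723_at and 0.02 for 1422264_s_at. Of these 1452723_at and 1422264_s_at were under an intensity of 50 in all arrays and were not tested.

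Klf10, first described as an early gene of the transforming growth factor response, had changes of opposite sign in the experiments. Its probe set 1416029_at read 8.59 and 8.56 in cultured PCs of experiment 2 and 8.69 in those of experiment 1, against 9.01 in ex vivo PCs of experiment 2 and 7.40 in those of experiment 1. The cultured arrays lay together and between the ex vivo arrays. The change was -0.42 and -0.45 in experiment 2 and 1.29 in experiment 1, and the mean difference of 0.41 had an SD among ex vivo arrays of 1.14 (n = 2) and among cultured arrays of 0.067 (n = 3).

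Klf13, which encodes an activator of the chemokine gene CCL5 in human T cells, differed little between cultured and ex vivo PCs by its probe set 1436316_at, with 10.61, 10.50 and 10.75 in cultured PCs, against 10.50 and 10.66 in ex vivo PCs, a difference of 0.04. Its other probe sets were split by experiment. With 1432543_a_at the levels were 8.63 and 8.47 in cultured PCs of experiment 2 and 11.62 in those of experiment 1, against 8.87 and 11.60 in ex vivo PCs of experiments 2 and 1. With 1456030_at they were 7.50 and 7.53 in cultured PCs of experiment 2 and 9.67 in those of experiment 1, against 7.71 and 9.68 in ex vivo PCs of experiments 2 and 1. Both had lower means in cultured PCs, with differences of -0.66 for 1432543_a_at and -0.46 for 1456030_at, and the sign turned when ex vivo experiment 1 was left out (0.70 for 1432543_a_at and 0.52 for 1456030_at).

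Klf3, which encodes a CtBP-recruiting repressor needed for normal B cell development in mice, had differences of both signs over its 7 probe sets, from -0.55 to 0.26. Its brightest probe set, 1421604_a_at, read 9.50 and 9.20 in cultured PCs of experiment 2 and 9.04 in those of experiment 1, against 9.21 and 9.37 in ex vivo PCs of experiments 2 and 1, a difference of -0.04. The extremes were 1431630_a_at (-0.55) and 1429360_at (0.26), whose groups overlapped. The difference of 1431630_a_at was 0.10 without ex vivo experiment 1, -1.21 without ex vivo experiment 2 and -0.35 with the experiment as a block. Cultured arrays were below both ex vivo arrays only for 1458487_at, with 6.41, 6.42 and 6.60, against 6.67 and 6.70, a difference of -0.21. The differences of 1454666_at and 1441200_at were both 0.10, and that of 1442920_at was -0.28, and 0.14 without ex vivo experiment 1.

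**Figure D2:**
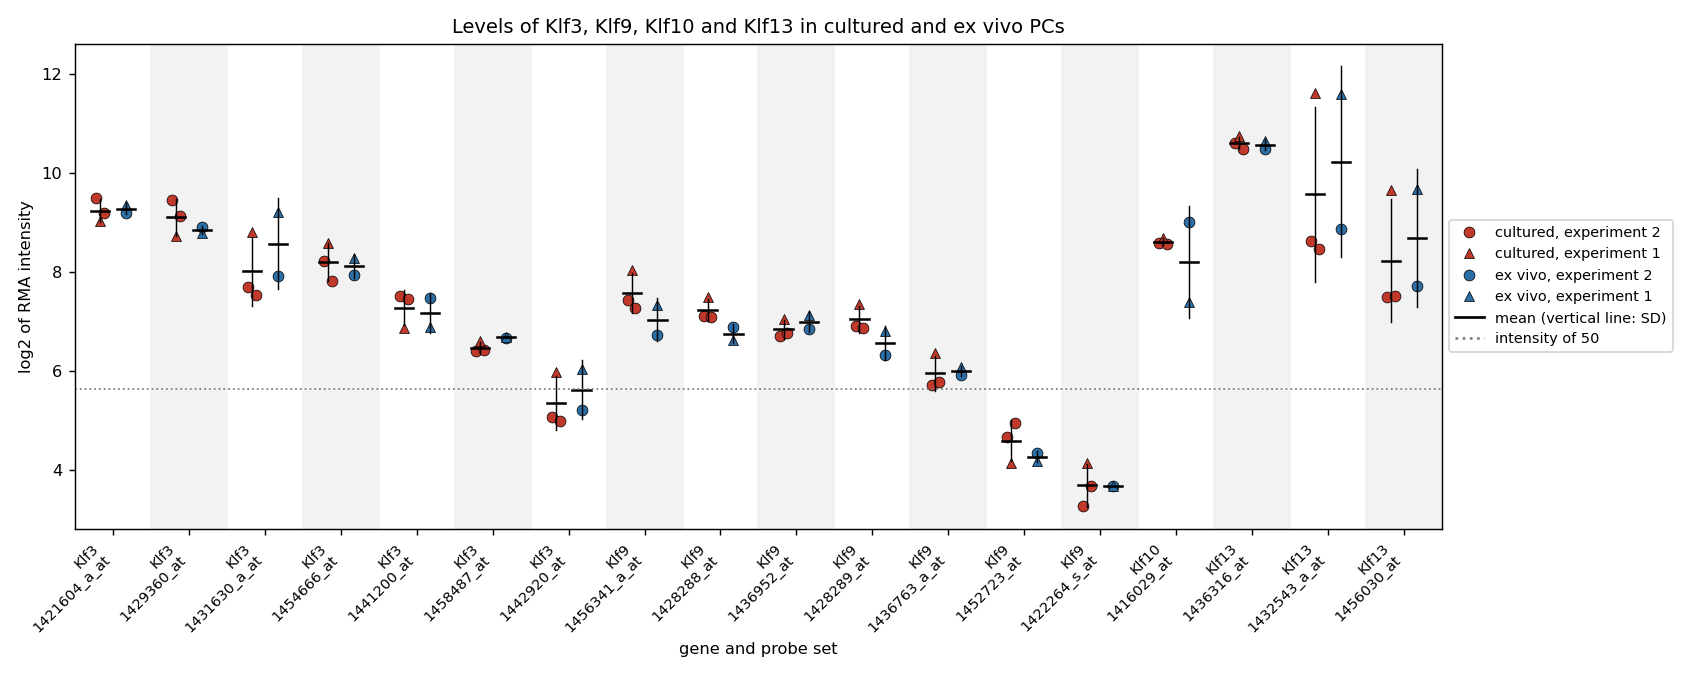
Log2 intensity of each Klf3, Klf9, Klf10 and Klf13 probe set in 3 cultured and 2 ex vivo arrays, with circles for experiment 2, triangles for experiment 1, bars for the group mean and SD, and a dotted line at an intensity of 50. The arrays of 1432543_a_at of Klf13 group by experiment, near 8.63 in experiment 2 and 11.62 in experiment 1, and the ex vivo arrays of Klf10 lie on either side of its cultured arrays.

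Counted over the family, 16 probe sets had lower and 10 had higher means in cultured PCs, and 12 were lower and 3 higher in every pair of an experiment. In 5 the sign was opposite between the experiments and in 6 the pairs of experiment 2 differed in sign or equalled 0. Of the 5 genes with several probe sets, Klf3, Klf9 and Klf13 had means in both directions. An intensity of 50 or more in at least 2 arrays was required for testing, which 23 of the 26 passed. Means were lower for 15 of these and higher for 8, beside 16247 and 14216 of all 30477 tested probe sets. Every pair was lower for 12 and higher for 3, beside 7579 and 7031 of all. The sign was opposite between the experiments for 4, beside 7379 of all. Both pairs of experiment 2 share 1 ex vivo array. Of these 23, 8 had every cultured array below every ex vivo array, as did 10.6% of all 30477 tested probe sets, and 2 had every cultured array above, as did 9.42%. At an adjusted p under 0.05 1 of the 23 was called lower, that of Klf2, as against 0.0459% of all in either direction (limma), and with the experiment as a block 3 were called lower, those of Klf2 and Klf4, as against 1.80% of all. Since the genes were selected on this contrast, these counts are a record of the selection. The median difference of the 23 was -0.21 and that of all tested probe sets -0.02.

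**Figure D3:**
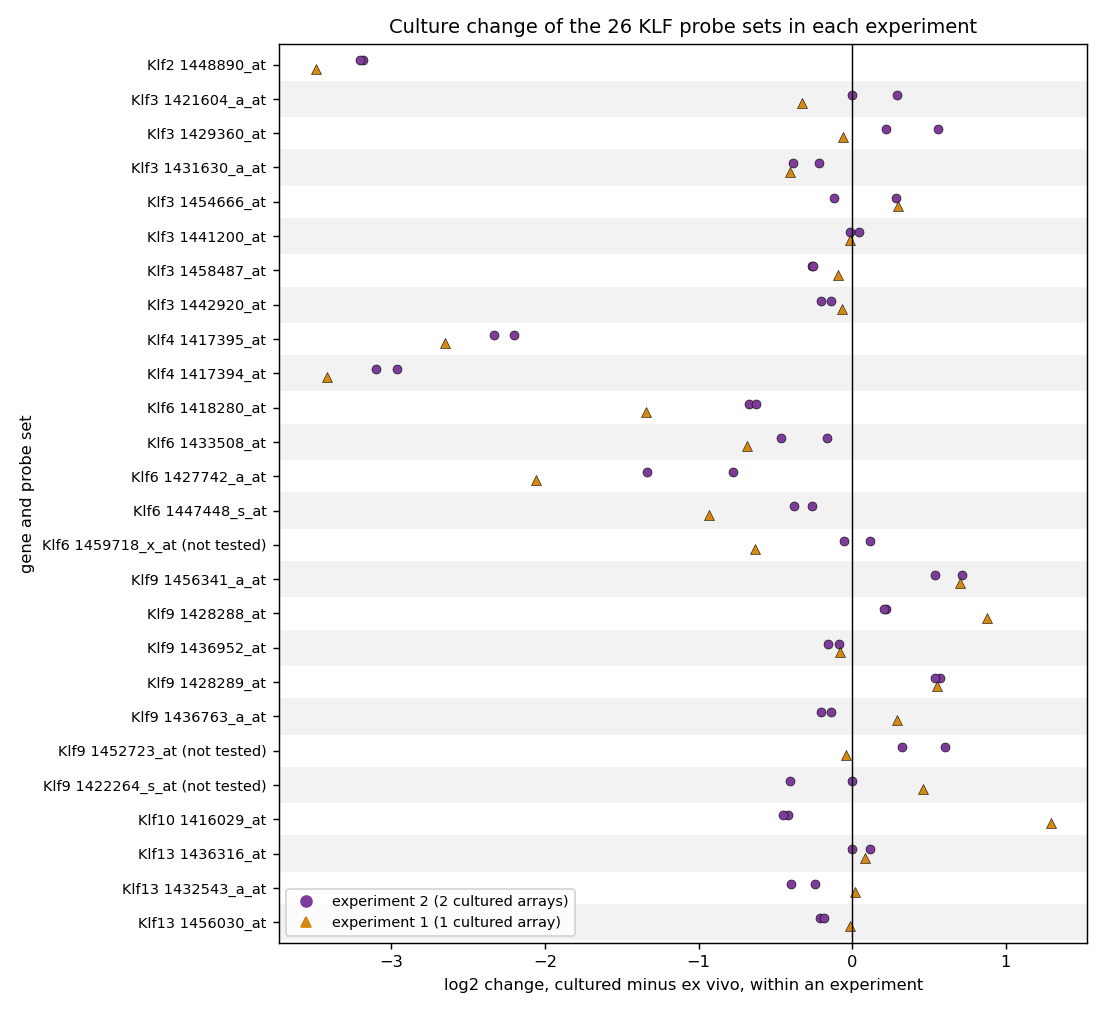
Log2 change, cultured minus ex vivo, of all 26 KLF probe sets, with circles for the 2 cultured arrays of experiment 2 and triangles for experiment 1, each against the ex vivo array of its own experiment. Klf2 lies between -3.49 and -3.19, Klf4 and most Klf6 points are left of 0, and Klf10 lies at 1.29 in experiment 1 and at -0.42 and -0.45 in experiment 2.

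Markers of other cells differed between the same arrays. Of 13 tested stromal markers 2 were higher in cultured PCs, and of 8 tested macrophage markers 1, C1qa, was lower (limma, adjusted p under 0.05 without the block). With the experiment as a block 9 stromal markers were higher and 1, Vcam1, was lower, and 4 macrophage markers were lower and 1, Cd68, was higher. Summed linear intensity over 15 stromal markers was 5768.99 to 14162.9 in cultured PCs and 890.53 to 1156.64 in ex vivo PCs, with Col3a1, Col6a1, Cxcl12 and Cav1 under 50 in both ex vivo arrays, Thy1 under 50 in all cultured arrays, and Lum and Postn under 50 in all 5. Over 11 macrophage markers it was 1521.51 to 1906.93 in cultured PCs and 1687.97 to 2168.44 in ex vivo PCs. The complement genes C1qa, C1qb and C1qc and also Cd163 were under 50 in all cultured arrays, and Adgre1 and Timd4 in all 5 arrays. Over 8 endothelial markers, of interest since endothelial cells express Klf2 and Klf4, the sum was 916.04 to 1013.43 in cultured PCs and 944.81 to 1174.54 in ex vivo PCs, with Tek and Emcn under 50 in all 5 arrays. Over 7 neutrophil markers the sum was 405.46 to 417.14 in cultured PCs and 499.89 to 813.93 in ex vivo PCs, with S100a8 and Mpo under 50 in all cultured arrays, and 3 of 4 tested had every cultured array below every ex vivo array. Of 6 tested B lineage markers 3 did so, 1, Dntt, was lower with the block, and 1 was higher after culture in every pair. The sum over 7 B lineage markers was 5817.47 to 6402.31 in cultured PCs and 5384.5 to 6238.91 in ex vivo PCs. Of 5 tested T and NK cell markers 1, Gzma, was lower with the block, and means were higher in cultured PCs for 2 and lower for 3. Over 8 such markers the sum was 2054.04 to 2738.61 in cultured PCs and 1916.49 to 3002.29 in ex vivo PCs. The 8 PC markers summed to 55729.6 to 57907.1 in cultured PCs and to 58659.8 to 60418.8 in ex vivo PCs, all of them above 50 in every array. The part of other cells in the KLF differences was not tested.

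The difference between the experiments, which the selection did not use, was tested with limma with culture as a covariate. Of the 23 KLF probe sets 9 differed, 1 higher and 8 lower in experiment 2 than in experiment 1, or 39.1%, beside 26.8% of all tested probe sets (3954 higher and 4216 lower). The 9 include 1442920_at of Klf3, which passed the filter only through experiment 1. The median difference was -0.31 over the KLF probe sets and 0.0047 over all. The largest belonged to Klf13, with -2.93 (SE 0.13, adjusted p = 0.0023, limma) for 1432543_a_at and -2.07 (SE 0.11, adjusted p = 0.0025) for 1456030_at. The third Klf13 probe set, 1436316_at, had a difference of -0.18 (adjusted p = 0.26), so the probe sets of this gene disagreed.

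Klf3 probe sets differed between the experiments in both directions. The difference was -1.24 (SE 0.12, adjusted p = 0.0036, limma) for 1431630_a_at, -0.90 (SE 0.11, adjusted p = 0.0055) for 1442920_at and 0.60 (SE 0.10, adjusted p = 0.014) for 1441200_at. All 3 levels of 1442920_at in experiment 2 were below an intensity of 50, so it passed the filter only through experiment 1, where it was higher. Its call is therefore not independent of the filter, and nothing is concluded from it. With a minimum of 100 it was not tested, and 8 KLF probe sets differed. With intensities under 50 set to 50 its difference was -0.36 (adjusted p = 0.0495, limma). The levels of 1431630_a_at were 7.71 and 7.54 in cultured PCs and 7.92 in ex vivo PCs of experiment 2, against 8.82 in cultured PCs and 9.23 in ex vivo PCs of experiment 1. For 1441200_at they were 7.51 and 7.45 in cultured PCs and 7.47 in ex vivo PCs of experiment 2, against 6.88 in cultured PCs and 6.89 in ex vivo PCs of experiment 1. Neither probe set overlapped between the experiments, as held for 10 of the 23 tested KLF probe sets and for 15024 of all 30477.

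Both Klf4 probe sets and 2 of the 5 tested Klf9 probe sets were called lower in experiment 2. The difference was -0.66 (SE 0.12, adjusted p = 0.014, limma) for 1456341_a_at and -0.47 (SE 0.10, adjusted p = 0.025) for 1428289_at of Klf9. Not called were 1436763_a_at (-0.42, adjusted p = 0.082, limma), 1436952_at (-0.31, 0.083) and 1428288_at (-0.11, 0.67). For the Klf9 probe sets under an intensity of 50, the difference without the filter was 0.45 for 1452723_at and -0.38 for 1422264_s_at. For Klf4 it was -0.51 (SE 0.14, adjusted p = 0.042) with 1417395_at and -0.49 (SE 0.14, adjusted p = 0.048) with 1417394_at. With intensities under 50 set to 50 the call of 1417394_at was lost (-0.30, adjusted p = 0.27, limma). With the cultured arrays of experiment 2 averaged, 6 of the 9 calls were made, and those lost were both of Klf4 (adjusted p = 0.068 and 0.075) and 1428289_at of Klf9 (0.061). Without the filter 7 were made, and both of Klf4 were lost (adjusted p = 0.058 and 0.066, limma). Klf2 had a difference of -0.09 (SE 0.12, adjusted p = 0.63), Klf10 of 0.63 (SE 0.37, adjusted p = 0.26), and 0 of 4 tested Klf6 probe sets passed. With 3 arrays in experiment 2 and 2 in experiment 1, an exact two-sided permutation test of any of these levels could not go below p = 0.1. Without cultured replicate 2 of experiment 2, 4 of the 9 calls were made, and they were those of Klf13 and of 1431630_a_at and 1442920_at of Klf3. All 9 were made without cultured replicate 1 of experiment 2, and none was made without either of the ex vivo arrays or without the cultured PCs of experiment 1.

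**Figure D4:**
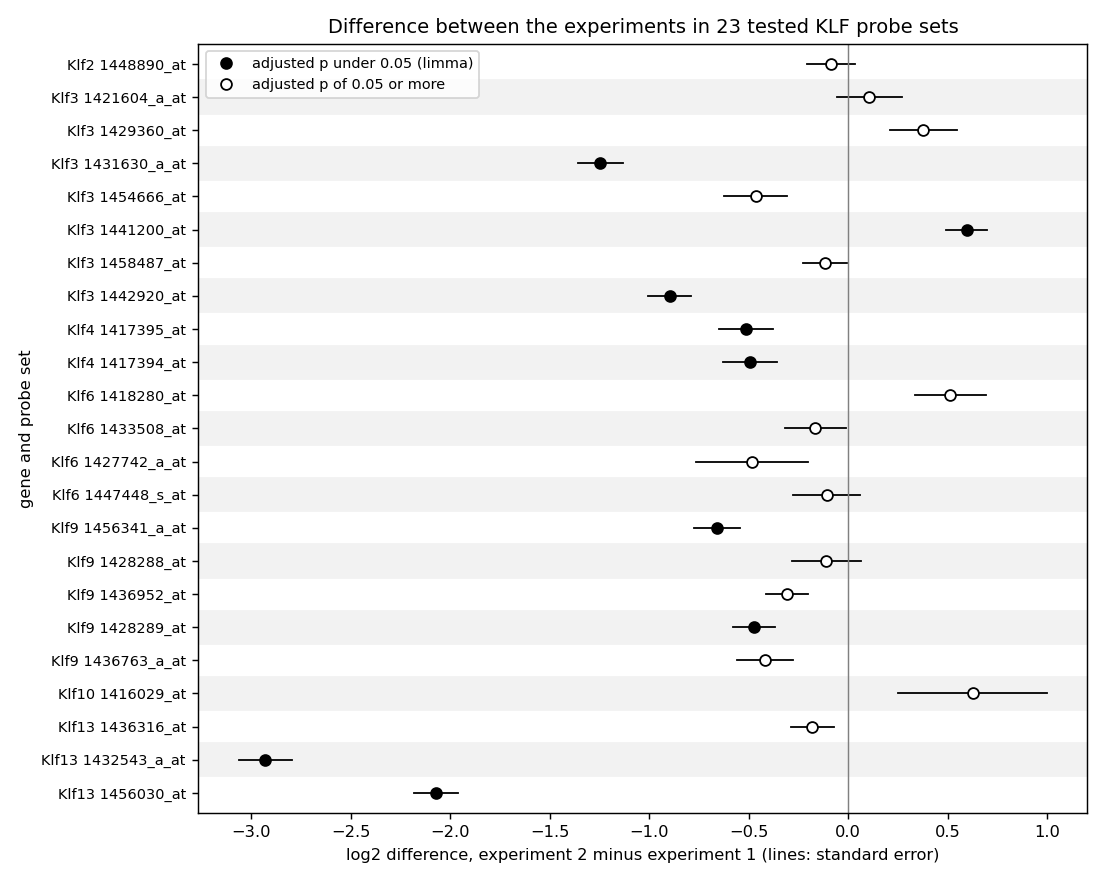
Log2 difference, experiment 2 minus experiment 1, of the 23 tested KLF probe sets with culture in the model, with lines for the standard error and filled points for an adjusted p under 0.05 (limma). The points farthest left are those of Klf13 at -2.93 and -2.07, and 1 filled point, that of Klf3 1441200_at at 0.60, lies right of 0.

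Control probe sets at the ends of transcripts, which reflect RNA quality, also separated the experiments. For Actb the 3' control probe set over the 5' one gave a log2 ratio of -0.11 and -0.01 in cultured PCs and -0.12 in ex vivo PCs of experiment 2, against 0.77 in cultured PCs and 0.31 in ex vivo PCs of experiment 1. The Gapdh ratio was 0.30 and 0.28 in cultured PCs and 0.34 in ex vivo PCs of experiment 2, against 0.63 in cultured PCs and 0.74 in ex vivo PCs of experiment 1. All ratios of experiment 1 were above those of experiment 2, and their part in the KLF differences between the experiments was not tested.

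The rest of the family was tested for its change with culture. These were 11 further KLF genes and the 9 genes of the related specificity protein (SP) factors, 16 of which had a probe set assigned to 1 gene (not Klf8, Klf18, Sp2 and Sp9). Of their 33 probe sets 15 KLF and 8 SP probe sets were tested. None of these 23 differed (limma, adjusted p, with or without the experiment as a block), and 0 had an unadjusted p under 0.05. The further KLF genes were those left after the members had been selected on this same change. The lack of calls among them is therefore not independent of that selection, and nothing is concluded from it. The SP genes were also listed with earlier results of these data known. For the further KLF probe sets the mean was higher in cultured PCs for 4 and lower for 11, with a median difference of -0.11, and for the SP probe sets it was higher for 3 and lower for 5, with a median of -0.10. The largest differences were those of Klf12, which encodes a CtBP-recruiting repressor, with -0.50 (SE 0.46) for 1439847_s_at and -0.42 (SE 0.40) for 1439846_at, and of Klf7, an activator known from neurons, with -0.45 (SE 0.27) for 1419354_at and -0.29 (SE 0.21) for 1419356_at. Klf7 1419354_at read 9.24 and 9.39 in cultured PCs of experiment 2 and 10.03 in those of experiment 1, against 9.88 and 10.12 in ex vivo PCs of experiments 2 and 1, so the groups overlapped. A pair of Sp6 probe sets had every cultured array below every ex vivo array, as did 10.6% of all tested probe sets. Their differences were -0.17 and -0.13. The other Sp6 probe sets were not tested and overlapped, with differences of 0.08 for 1437788_at and 0.19 for 1427787_at. Between the experiments 2 of the 15 further KLF probe sets were higher and 4 lower in experiment 2, or 40%, beside 26.8% of all, and 0 of 8 SP probe sets passed.

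**Figure D5:**
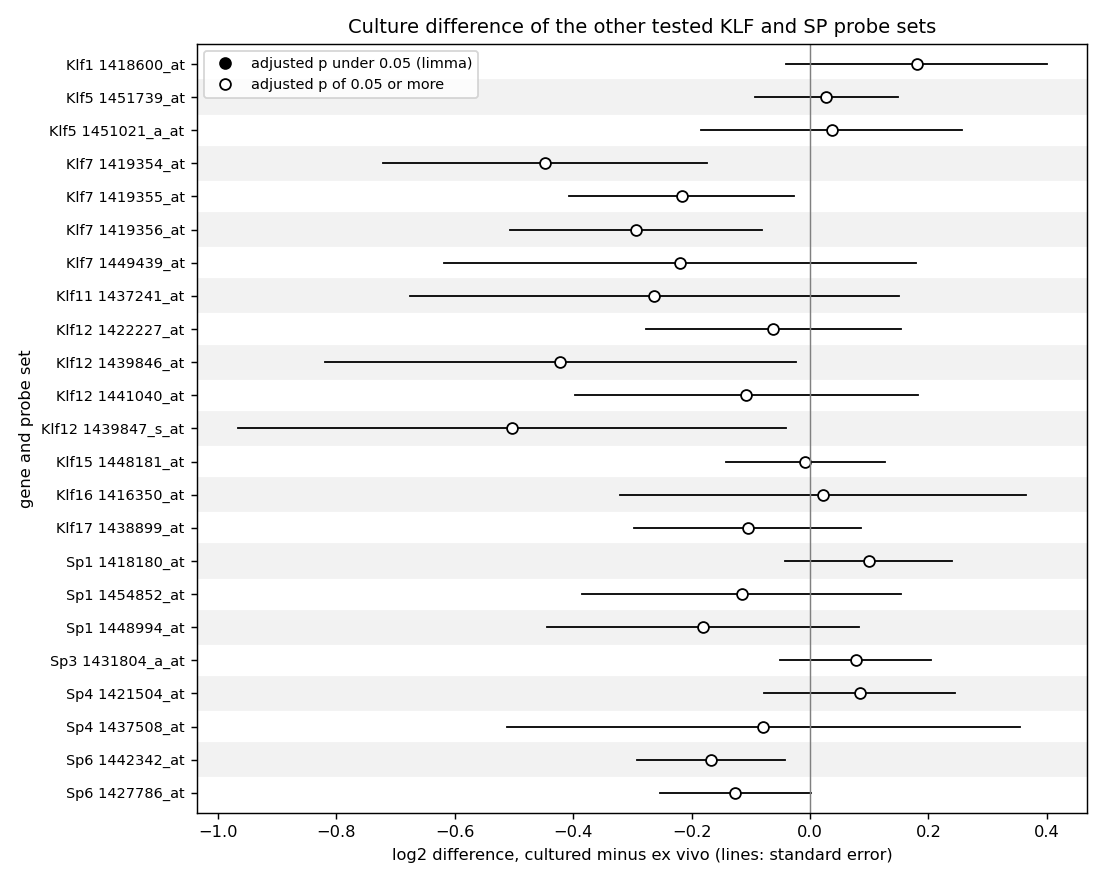
Log2 difference, cultured minus ex vivo, of the 23 tested probe sets of further KLF and SP genes, with lines for the standard error (limma). All differences lie between -0.50 and 0.18 and none has an adjusted p under 0.05.

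Genes linked to KLF proteins were examined as lists of cofactors, of enzymes that turn KLF proteins over, of upstream signals and of targets, each gene by its brightest tested probe set. Of 51 genes 46 were tested, and 0 differed with culture without the block, with 5 at an unadjusted p under 0.05. Over all 30477 tested probe sets 2007 had such a p. With the experiment as a block 4 were higher in cultured PCs and 0 lower (limma), beside 1.80% of all in either direction. All 4 are targets, and Cdkn1a is the only one of them on the list for KLF2 and KLF4.

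Among 10 cofactors, 7 turnover genes and 15 upstream genes 0 passed with or without the block, with 0 at an unadjusted p under 0.05 and median differences of -0.16, -0.07 and -0.08. The largest cofactor differences were 0.51 (SE 0.24) for Sin3a, the corepressor that binds KLF9, KLF10 and KLF13, and -0.47 (SE 0.40) for the deacetylase gene Hdac2. The largest turnover differences were -0.34 (SE 0.16) for Btrc and 0.30 (SE 0.25) for Siah1a, both of which encode parts of ubiquitin ligases. Of the upstream genes Map3k2, which encodes a kinase of the ERK5 cascade that induces Klf2 and Klf4, had 0.89 (SE 0.48) and Mef2a, which encodes a factor at the end of that cascade, had 0.27 (SE 0.52). Map3k2 had 9.62 and 9.50 in cultured PCs of experiment 2 and 8.40 in those of experiment 1, against 8.74 and 7.84 in ex vivo PCs of experiments 2 and 1, higher after culture within each experiment but overlapping across them.

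Of 11 targets of KLF2 and KLF4, 8 were tested, with a median difference of 0.15. Cdkn1a, which encodes the cell cycle inhibitor p21 and is induced by KLF4, read 8.78 and 9.01 in cultured PCs of experiment 2 and 9.96 in those of experiment 1, against 7.65 and 8.14 in ex vivo PCs of experiments 2 and 1. Each cultured array was above both ex vivo arrays. The blocked difference was 1.49 (SE 0.17, adjusted p = 0.023, limma), and without the block it was 1.36 (SE 0.40, adjusted p = 0.59). S1pr1, the receptor gene through which KLF2 controls T cell egress, was named for that role and not by its rank. It read 6.44 and 6.57 in cultured PCs of experiment 2 and 5.29 in those of experiment 1, against 6.32 and 5.60 in ex vivo PCs of experiments 2 and 1, a difference of 0.14 (SE 0.47, adjusted p = 0.96, limma).

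Of 9 targets of KLF3, KLF6, KLF10 and KLF13, 7 were tested (not Klf8 and Plau), with a median difference of 0.11. Ccl5, the chemokine gene that KLF13 activates in human T cells, read 8.24 and 8.33 in cultured PCs of experiment 2 and 9.04 in those of experiment 1, against 6.23 and 6.00 in ex vivo PCs of experiments 2 and 1. The groups were far apart, with a blocked difference of 2.48 (SE 0.23, adjusted p = 0.013, limma). Lgals3, which encodes galectin-3 and is repressed by KLF3 in mice, read 8.04 and 8.07 in cultured PCs of experiment 2 and 7.65 in those of experiment 1, against 5.92 and 6.61 in ex vivo PCs of experiments 2 and 1, a blocked difference of 1.66 (SE 0.25, adjusted p = 0.046, limma). Col1a1, a collagen gene that KLF6 activates in rat liver cells, read 10.97 and 10.77 in cultured PCs of experiment 2 and 9.29 in those of experiment 1, against 6.45 and 6.78 in ex vivo PCs of experiments 2 and 1, a blocked difference of 3.60 (SE 0.41, adjusted p = 0.023, limma). Col1a1 is also on the stromal marker list, whose summed intensity was higher in all cultured arrays, and the part of stromal RNA in these differences was not tested. Without the block the adjusted p was 0.11 for Ccl5, 0.25 for Lgals3 and 0.19 for Col1a1. In the blocked fit without cultured replicate 2 of experiment 2 only Ccl5 was called of the 4 targets (adjusted p = 0.039, limma), and without replicate 1 Lgals3 was not (adjusted p = 0.083).

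The genes most like each member over the 5 arrays were found by the root mean square (RMS) distance between log2 profiles after each was centred on its own mean, with the member taken by its brightest tested probe set. This is a description over 5 arrays and 30476 other probe sets. Only genes outside the KLF members were named, whereas the counts cover all other probe sets. Probe sets that are not named can therefore lie nearer than a named gene. Klf2 was nearest to Jun, an AP-1 subunit gene, at 0.15, and to Dusp1, a phosphatase gene of MAP kinases, at 0.40, and only 3 probe sets lay within 0.25 of it. Klf4 was nearest to Nfkbiz, at 0.19, which encodes a nuclear IkB protein, and to C1qb, at 0.21, with 6 probe sets within 0.25. Klf6 was nearest to Fkbp11, which encodes a prolyl isomerase of the secretory pathway, at 0.081 and to the phosphatase gene Cdkn3 at 0.12, with 81 within 0.25, and Klf10 to Mbtd1 at 0.17 and Bclaf1 at 0.18, with 60. By their brightest probe sets the other members had flatter profiles and many neighbours. This does not hold for the other Klf13 probe sets, 1432543_a_at and 1456030_at, which were split by experiment. For Klf9, nearest to the semaphorin receptor gene Plxnd1 at 0.059 and to Lss, a gene of cholesterol synthesis, at 0.061, 957 probe sets lay within 0.25. For Klf3, nearest to Mtmr11 at 0.012 and Eri3 at 0.021, 13471 did, and for Klf13, nearest to AW011738 at 0.016 and Tmem167 at 0.018, 16795 did.

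Jun read 7.58 and 7.74 in cultured PCs of experiment 2 and 7.73 in those of experiment 1, against 10.86 and 11.48 in ex vivo PCs of experiments 2 and 1, a difference of -3.49 beside -3.34 for Klf2. Nfkbiz read 6.74 and 6.67 in cultured PCs of experiment 2 and 7.13 in those of experiment 1, against 8.79 and 9.27 in ex vivo PCs of experiments 2 and 1, a difference of -2.18 beside -2.52 for Klf4. As in Klf4, the array of experiment 1 was the highest of each group in Nfkbiz.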

How the data were processed

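RNA of 3 cultured and 2 ex vivo PC samples was hybridized to Affymetrix mouse arrays. The deposited values were linear intensities (4.94 to 26947.2, array medians 87.05 to 94.19), which the authors made from the scanned signals with RMA in the affy package, and the submitters' notes also name GCOS. The sources used here give no tool versions. They were converted to log2 without further normalization. Of 45101 probe sets 64 controls were left out, and 34945 carried 1 symbol, 932 several and 9160 none. Every value column belonged to a sample of the series.

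Groups were taken from the labels. Tests used limma 3.58.1 under R 4.3.3 (lmFit, eBayes, two-sided) on the 30477 probe sets that reached an intensity of 50 in 2 or more arrays, with Benjamini-Hochberg adjustment over all of them. Cultured minus ex vivo was fitted without covariates and, as an alternative, with the experiment as a block, and experiment 2 minus experiment 1 with culture. Experiment numbers shared in the labels paired the samples, and deviations from group means correlated at 0.75 in experiment 1 and at 0.56 and 0.72 in experiment 2. With 2 ex vivo arrays the deviations of 1 mirror those of the other, and the deviations of the cultured arrays cancel out. These correlations are therefore tied to each other and do not count as separate support for the pairing. The code was tested on simulated data. Depth has no counterpart on arrays, and the number of arrays limits precision.

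The members and all gene lists were chosen with earlier results of these data known. Named were all KLF probe sets, up to 4 called genes per list or otherwise the 2 with the largest difference (4 for the further KLF and SP genes), and the 2 nearest genes of each member.

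Alternatives were the block, averaging the cultured arrays of experiment 2, no filter or a minimum of 100, quantile normalization, intensities under 50 set to 50, a trended robust eBayes, an unadjusted p under 0.01, and leaving out each array. No detection call was used here.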

Additional observations from a re-analysis of the deposited data

Results flagged for a closer look

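Results are listed here because the change with culture had one sign in experiment 1 and the opposite sign in both pairs of experiment 2. This held for 4 of the 23 tested KLF probe sets and for 7379 of all 30477, so it is common on these arrays. The values are the culture change of experiment 2 minus that of experiment 1, on the log2 scale. Klf10 1416029_at had the largest, -1.73, with changes of -0.42 and -0.45 in experiment 2 and 1.29 in experiment 1 (limma interaction, unadjusted p = 0.0026, adjusted p = 0.65). For Klf9 1436763_a_at it was -0.46, with changes of -0.20 and -0.14 in experiment 2 and 0.29 in experiment 1. For Klf13 1432543_a_at it was -0.34, with changes of -0.24 and -0.40 in experiment 2 and 0.02 in experiment 1. For Klf3 1429360_at it was 0.45, with changes of 0.56 and 0.22 in experiment 2 and -0.06 in experiment 1. For Klf9 1452723_at, under an intensity of 50 in all arrays, it was 0.51, with changes of 0.33 and 0.61 in experiment 2 and -0.04 in experiment 1, and the difference was not tested. The adjusted p of the 4 tested ones was 0.65 to 0.70 (limma). In the test of this difference, which had 1 residual degree of freedom, 0 of 30477 probe sets passed and 2008 had an unadjusted p under 0.05.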

How the results depend on the processing

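The culture differences of Klf2, of both Klf4 probe sets and of the 4 tested Klf6 probe sets kept their sign under all 9 alternatives run for them, between -3.47 and -3.21 for Klf2, between -2.88 and -2.15 for Klf4 1417395_at and between -3.63 and -2.78 for 1417394_at. Of the 26 KLF probe sets 13 kept their sign and 13 did not in at least 1 alternative, among them Klf10 (-0.40 without ex vivo experiment 1, highest value 1.22) and Klf13 1432543_a_at (-2.03 to 0.70).

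Of all tested probe sets 14 differed with culture, 550 with the experiment as a replicate block, 0 with the cultured arrays of experiment 2 averaged, 5 without a filter, 31 with a minimum of 100, 4 with intensities under 50 set to 50, 618 at an unadjusted p under 0.01, and 0 to 257 with 1 array left out, the highest without the cultured array of experiment 1. Between the experiments 8170 differed, 5164 without culture as a covariate and 0 to 6916 with 1 array left out. Of the KLF probe sets 9 differed between the experiments, 5 without the covariate and 0 to 9 with 1 array left out. Of the further KLF and SP probe sets 0 differed with culture under every alternative. Of regulators and targets 0 differed, 4 with the block, 3 at an unadjusted p under 0.01 and 0 to 2 with 1 array left out. The cause of these shifts was not tested. Fits with the block and fewer arrays were added after seeing the data: with the cultured arrays of experiment 2 averaged 187 of all and 1 of the linked genes (Ccl5) differed with culture, without cultured replicate 1 of experiment 2 they were 271 and 3, and without replicate 2 they were 153 and 1. The adjusted p of Ccl5 was 0.025 to 0.039 over these fits, that of Cdkn1a 0.030 to 0.081, of Col1a1 0.044 to 0.068 and of Lgals3 0.083 to 0.13 (limma). Where 1 array was left in a group, it was taken to vary like the others. Signal near background limits the probe sets under an intensity of 50.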
